A study of Mus musculus with 12 samples.

Results

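Core spliceosome proteins were followed by 43 genes that encode the protein subunits of the spliceosomal particles and the partners of U6 RNA. The members were taken by gene symbol from a named list. No measured value served as a filter, but the list was chosen with earlier results of these data known. All 43 were present among the 27998 genes of the single-cell libraries and among the 40814 genes of the neurosphere count table. They comprised 7 genes of the Sm ring (Snrpb, Snrpd1, Snrpd2, Snrpd3, Snrpe, Snrpf and Snrpg), 7 of the Lsm ring of U6 (Lsm2 to Lsm8), 3 of the U1 particle, 10 of the U2 particle, 13 of the U4/U6.U5 tri-snRNP and 3 others (Sart3, Prpf19 and Snrnp48).

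The spliceosome removes introns from pre-mRNA and is assembled on each intron from small nuclear ribonucleoproteins (snRNPs), each an RNA with its proteins. U1 reads the 5′ splice site, U2 the branch point, and the U4/U6.U5 tri-snRNP then delivers U6, which becomes part of the catalytic centre once the helicase SNRNP200 has unwound it from U4 under the control of PRPF8. The Sm ring encircles U1, U2, U4 and U5 RNA, the Lsm ring holds the 3′ end of U6, and LARP7, best known as a stabiliser of the 7SK RNA, also binds U6 and guides its modification.

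The members were measured in mouse dentate gyrus with and without Larp7, which asks whether the protein side of the spliceosome moved where a U6 partner was lost. Neurospheres were grown from the dentate gyrus of newborn mice (P1), wild-type (2 libraries) or Larp7 f/f;Emx1-Cre (3 libraries, called KO below), then replated before bulk RNA-seq. The labels and methods give 2 days in N2B27 medium with 20 ng/ml bFGF, while another passage of the study describes serum in place of the growth factors, and which applied is not settled here. Dissociated cells of the P7 dentate gyrus were read by droplet single-cell RNA-seq in 1 library per genotype: P7_WT, P7_L7_Nestin (Larp7 f/f;nestin-Cre) and P7_L7_Emx1 (Larp7 f/f;Emx1-Cre), with the gyri of several littermates combined in each. In the study all wild-type controls carry the floxed alleles without Cre, and recombination removes exon 9 of Larp7. The nestin-Cre transgene acts in progenitors of the whole developing central nervous system and Emx1-Cre in those of the dorsal forebrain, and microglia, which arise outside the brain, lie outside both. The titles and the genotype entries of the 2 mutant P7 libraries are crossed in the labels, and the titles were followed here. The library titled P7_L7_Nestin held 7177 barcodes and that titled P7_L7_Emx1 6821. The paper kept more nestin-Cre cells than the latter number, so its cell counts go with the titles. The labels do not say whether neurosphere libraries of one genotype came from separate animals or cultures, so p-values measure the spread between these libraries, which may be technical.

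The neurosphere libraries held 59821311 to 62474602 counts. Larp7 itself stood at 42.8 and 35.0 CPM (counts scaled to a common library size by TMM) in the wild-type and at 4.16, 6.35 and 4.39 CPM in the KO libraries, and fell by 2.97 on the log2 scale (SE 0.21, adjusted p = 0.0198, edgeR quasi-likelihood test with Benjamini-Hochberg adjustment). Over all deposited barcodes, the P7 libraries held 26689878 to 28918491 unique molecular identifiers (UMIs, each a captured RNA molecule). The filters kept 10997 wild-type, 6685 P7_L7_Nestin and 6531 P7_L7_Emx1 cells. The median wild-type cell had 1782 UMIs against 3644 and 3873 in the mutant libraries, and 8 to 16 barcodes were shared between any pair of libraries. An unnamed cluster of 3532 cells, with a median of 1023 UMIs, held 3379 wild-type cells. In cells resembling neuroblasts the medians were 3227, 3563.5 and 3744 UMIs, and in those resembling microglia 1706, 3268 and 3346 UMIs. Larp7 was at 99.1 CPM in wild-type cells resembling intermediate progenitors and at 10.6 and 14.99 CPM in the P7_L7_Nestin and P7_L7_Emx1 libraries, whereas in microglia-like cells it was at 62.9, 34.9 and 37.6 CPM.

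The promoters of 4 members are shown because the results turn on them. They encode PRPF8, the central scaffold of U5, SNRNP200, the U4/U6 helicase, PRPF3, which binds the U4/U6 duplex, and SmE, whose transcript was the most abundant of the Sm ring at P7. Each run is the 200 bases before the gene's start, 5′ to 3′ on the gene's strand, from RefSeq on GRCm38.p6. Capitals mark CCGGAA, the core bound by ETS factors, or the CCAAT box, each on either strand. The positions are chr11:75486577-75486776 (plus strand) for Prpf8, chr2:127208186-127208385 (plus strand) for Snrnp200, chr3:95855886-95856085 (minus strand) for Prpf3 and chr1:133610281-133610480 (minus strand) for Snrpe.
Prpf8: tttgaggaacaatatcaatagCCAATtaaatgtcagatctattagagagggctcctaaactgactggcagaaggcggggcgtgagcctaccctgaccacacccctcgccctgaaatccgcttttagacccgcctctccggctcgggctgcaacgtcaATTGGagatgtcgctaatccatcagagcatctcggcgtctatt
Snrnp200: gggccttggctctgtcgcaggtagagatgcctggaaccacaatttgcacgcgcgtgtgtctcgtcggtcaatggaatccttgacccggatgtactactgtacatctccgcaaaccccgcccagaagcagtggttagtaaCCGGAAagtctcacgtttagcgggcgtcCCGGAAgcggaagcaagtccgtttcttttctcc
Prpf3: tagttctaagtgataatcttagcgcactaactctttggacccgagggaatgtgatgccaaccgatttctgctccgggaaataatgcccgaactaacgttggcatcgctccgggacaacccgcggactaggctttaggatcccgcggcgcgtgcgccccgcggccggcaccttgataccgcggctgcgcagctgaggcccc
Snrpe: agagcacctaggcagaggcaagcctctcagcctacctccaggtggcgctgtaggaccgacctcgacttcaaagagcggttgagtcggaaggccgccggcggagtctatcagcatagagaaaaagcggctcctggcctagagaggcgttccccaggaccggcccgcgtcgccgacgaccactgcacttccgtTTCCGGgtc
The Snrnp200 window held 2 ETS cores, the Snrpe window 1 and the Prpf8 window 2 CCAAT boxes, and neither motif was present in the Prpf3 window. Promoter entries of 300 bases (250 before to 50 after the start) existed for 33 of the 43 members. The ETS core was present in 19 of these 33 (57.6%), against 15.2% of 27025 promoters, 24.6% of 13344 promoters of genes tested in neurospheres and 27.9% of 3677 tested genes with a similar GC content. The CCAAT box was in 12 of 33 (36.4%), close to the 37.9% of all promoters. A match is a run of letters and does not show binding.

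In neurospheres, Prpf8, Snrnp200 and Prpf3, which act together on U4/U6, stood higher in every KO library than in every wild-type library, and no member passed the adjusted threshold. Of 17753 genes tested, 0.0338% passed an adjusted p of 0.05, and 0 of the 43 members did, the smallest adjusted p being 0.0933. At an unadjusted p under 0.05, 15 members (34.9%) were higher in KO, against 10.4% of all genes, and 1 (Snrnp70) was lower, against 11.2% of all genes. The libraries did not overlap for 27 members with higher KO values (62.8%) and for 2 with lower KO values (4.65%), where the shares over all genes were 21.3% higher and 21.3% lower. The median log2 fold change was 0.19 over the members and 0.01 over all genes, and 40 members (93.0%) lay above 0, against 50.8% of all genes. In DESeq2, 10 members (23.3%) passed the adjusted threshold, against 10.8% of 14697 genes. Without wild-type replicate 1, 13 (30.2%) did, against 10.2% of 18707 genes. Without wild-type replicate 2 the members' median was 0.10, 9 were higher at an unadjusted p under 0.05 and 32 were above 0.

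**Figure D1:**
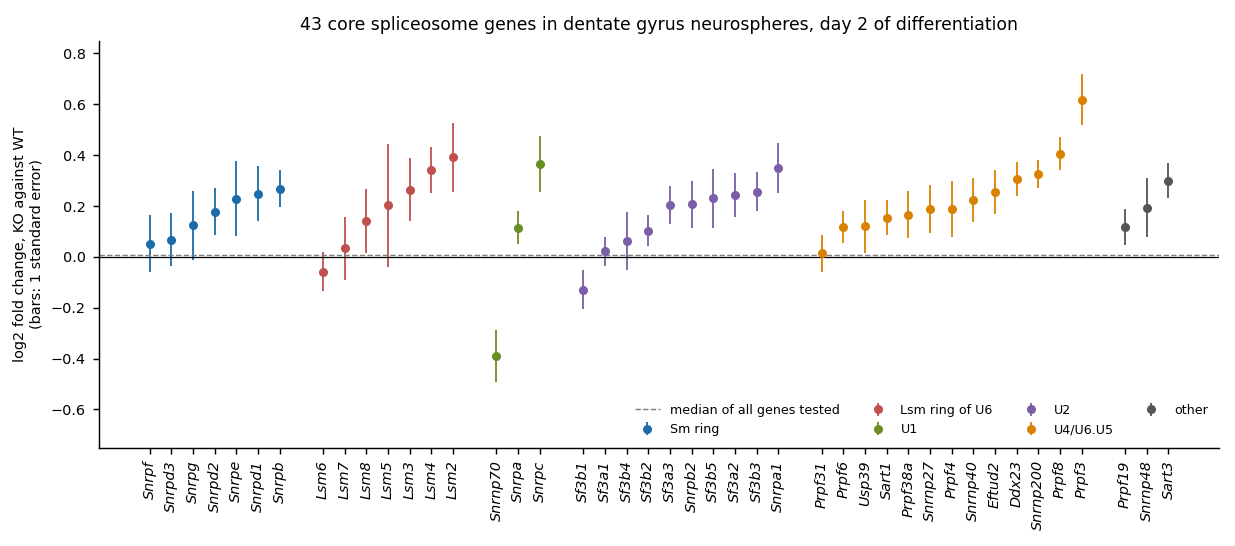
Log2 fold change of each of the 43 members in KO against wild-type neurospheres (edgeR, bars are standard errors), grouped by particle. Of the 43 points, 40 lie above 0, with Prpf3 the highest at 0.62 and Snrnp70 the lowest at -0.39.

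The 3 members with the smallest p were tri-snRNP genes, and that particle had 13 of 13 members above 0, a median of 0.19 and 6 higher at an unadjusted p under 0.05. Prpf8 (chr11:75486777-75509447, plus strand) was at 518 and 525 CPM in wild-type and at 691, 692 and 690 CPM in KO libraries. The 2 groups did not overlap, and the log2 difference was 0.41 (SE 0.065, unadjusted p = 0.000538, adjusted p = 0.0933, edgeR quasi-likelihood test). Prpf3 (chr3:95830124-95855885, minus strand) was at 33.7 and 28.6 CPM in wild-type and at 48.7, 48.3 and 46.5 CPM in KO libraries. All 3 KO libraries lay above both wild-type libraries, with a log2 difference of 0.62 (SE 0.10, adjusted p = 0.0933, edgeR). Snrnp200 (chr2:127208386-127240453, plus strand) was at 293 and 298 CPM in wild-type and at 373, 370 and 367 CPM in KO libraries. Its groups were likewise apart by 0.33 on the log2 scale (SE 0.056, adjusted p = 0.0933, edgeR). Ddx23, the helicase that helps to exchange U1 for U6 at the 5′ splice site, was at 143 and 128 CPM against 167, 170 and 165 CPM, a log2 difference of 0.31 (adjusted p = 0.107, edgeR). Among the tri-snRNP transcripts per kilobase of exon, Prpf8 was the most abundant, at 69.7 CPM per kilobase in wild-type and 92.4 in KO.

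In the U1 particle, Snrnp70, the 70K protein that bridges U1 to splicing activators, ran the other way. It was at 408 and 464 CPM in wild-type and at 324, 370 and 305 CPM in KO libraries. The groups did not overlap and the log2 difference was -0.39 (SE 0.10, adjusted p = 0.126, edgeR). Per kilobase of exon it was also the most abundant U1 member, at 88.8 CPM in wild-type and 67.7 CPM in KO. The other U1 members, Snrpc and Snrpa, had log2 differences of 0.36 and 0.12.

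In the U2 particle, 9 of 10 members were above 0 with a median of 0.21. Snrpa1, the U2-A′ protein, had the smallest p, at 32.7 and 28.5 CPM in wild-type and at 40.3, 37.9 and 38.8 CPM in KO libraries. Every KO library was above both wild-type ones, by 0.35 on the log2 scale (SE 0.098, adjusted p = 0.135, edgeR). Sf3b2, a branch-site binding subunit of SF3B and the most abundant U2 member per kilobase, was at 332 and 318 against 342, 360 and 344 CPM. Its log2 difference was 0.10 (adjusted p = 0.373, edgeR). Sf3b1, which clamps the branch-point helix, was the U2 member below 0, at -0.13.

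The Sm ring had 7 of 7 members above 0 with a median of 0.18, and Snrpb, which encodes SmB, had both its smallest p and its highest level per kilobase. Snrpb was at 133 and 117 CPM in wild-type and at 153, 152 and 146 CPM in KO libraries, which did not overlap (log2 difference 0.27, SE 0.072, adjusted p = 0.128, edgeR). The Lsm ring had 6 of 7 above 0 with a median of 0.20. Lsm4 was at 67.9 and 56.8 CPM in wild-type and at 79.1, 77.9 and 80.2 CPM in KO libraries. Its groups were apart by 0.34 on the log2 scale (SE 0.091, adjusted p = 0.127, edgeR). Lsm6 was the ring's member below 0, at -0.06, and ranged from -0.13 to 0.02 over the alternative settings.

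Among the 3 other members, Sart3, which recycles U4 and U6 into a new duplex and binds free U6, was at 103 and 93.2 CPM in wild-type and at 120, 125 and 117 CPM in KO libraries. The groups did not overlap, and the log2 difference was 0.30 (SE 0.068, adjusted p = 0.110, edgeR). Prpf19, the ubiquitin ligase of the complex that activates the spliceosome, was at 283 and 249.2 against 288, 285 and 293 CPM, with a log2 difference of 0.12 (adjusted p = 0.374, edgeR).

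**Figure D2:**
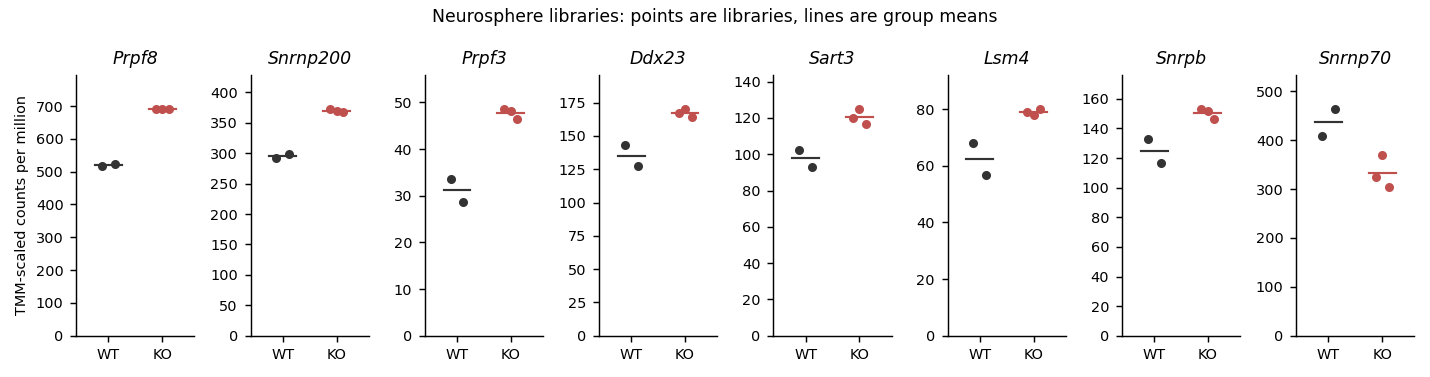
CPM in each neurosphere library for Prpf8, Snrnp200, Prpf3, Ddx23, Sart3, Lsm4, Snrpb and Snrnp70 (points are libraries, lines group means). For each of these 8 genes the 2 wild-type and 3 KO libraries do not overlap, and of the 8 only Snrnp70 is lower in KO.

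Summed over the 43 members, the level was 4881 and 4677 CPM in wild-type and 5291, 5275 and 5180 CPM in KO libraries, means of 4779 ± 144 (SD, n = 2) and 5249 ± 60.1 (SD, n = 3). The KO libraries were all above the wild-type ones, by 0.14 on the log2 scale. Cell cycle transcripts moved the same way. The summed level of S phase genes was 3246 and 1946 CPM in wild-type and 3652 to 3972 CPM in KO, with 42 of 42 tested genes above 0, and that of G2/M genes was 7225 and 4456 against 8403 to 8788 CPM, with 52 of 52 above 0. Astrocyte markers ran the other way, at 2298 to 2767 CPM in wild-type and 1359 to 1734 CPM in KO, with 1 of 10 above 0. Oligodendrocyte precursor markers were at 7189 to 7438 CPM in wild-type and 7395 to 8398 CPM in KO. Of these, 9 of 11 were above 0, with a median log2 fold change of 0.56. Those of microglia overlapped, at 20.0 to 25.5 against 19.6 to 23.0 CPM. Those of endothelial cells were low, at 3.27 to 3.95 against 4.17 to 4.44 CPM, with every KO library above both wild-type ones. The part of these in the members' difference was not tested, and in bulk RNA fewer cells of a type and less RNA per cell cannot be told apart.

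Of the other genes of the pathway, 75 of 96 without Larp7 were above 0 with a median of 0.11, against 50.8% of all genes above 0. In edgeR 0 of these 96 passed the adjusted threshold. In DESeq2, 10 of 97 with Larp7 included did, close to the share of 10.8% of 14697 genes. At an unadjusted p under 0.05 in edgeR, 20 of the 96 were higher and 2 lower, where the shares over all genes were 10.4% and 11.2%. A list of 16 genes held U6 maturation factors such as the capping enzyme Mepce and the methyltransferase Mettl16. It also held Lsm1, Lsm10, Lsm11, Lsm12, Lsm14a and Lsm14b, and Ncl, Fbl, Nop56 and Nop58. With Larp7 included, 12 of the 16 were above 0, with a median of 0.12. The SMN assembly machinery, which loads the Sm ring, had 14 of 17 above 0 (median 0.12), and the Prp19 complex with catalytic factors 19 of 23 (median 0.09). The minor spliceosome, which handles a rare class of introns, had 6 of 11 above 0 and a median of 0.01.

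At P7 the level of the members differed between cell classes. Classes were named from markers: RGL-like cells (radial glia-like stem cells), nIPC-like cells (neuronal intermediate progenitors), neuroblast-like, astrocyte-like, OPC-like (oligodendrocyte precursors), microglia-like and endothelial-like cells, each with at least 50 cells in every library. The members, the other genes of the pathway and the cell cycle genes were left out when cells were clustered. The RGL-like class was 740, 910 and 950 cells, the nIPC-like class 690, 772 and 957 and the neuroblast-like class 1675, 2418 and 2127 cells in P7_WT, P7_L7_Nestin and P7_L7_Emx1, and of the 3 clusters in the neuroblast-like class 1 held 386 cells of P7_WT but 1295 and 933 of the mutants. The microglia-like class joined 2 clusters that the libraries filled unequally, 1 of 668 cells, of which 533 were from P7_WT and 33 from P7_L7_Emx1, with a median of 1335 UMIs and 1 of 811 cells (254, 346 and 211 by library) with a median of 3378 UMIs. Of the 188 endothelial-like cells of P7_L7_Emx1, 116 came from a cluster with 1 cell of P7_WT and 0 of P7_L7_Nestin. With 1 library per genotype no test of conditions was possible. Values are shares of all UMIs of a class in a library, as CPM, with exact 95% Poisson intervals. The 95% intervals of log2 ratios use a normal approximation to the counts. Both kinds cover counting error only.

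Among the 7 named classes, the 43 members together stood highest in nIPC-like cells, at 8674 (8564 to 8785), 7910 (7817 to 8003) and 8084 (7999 to 8169) CPM in P7_WT, P7_L7_Nestin and P7_L7_Emx1. Neuroblast-like cells followed at 6222, 5815 and 5917 CPM, and RGL-like cells were at 5658, 5188 and 5396 CPM. Astrocyte-like cells had 4486, 4485 and 4459 CPM, the lowest of the 7 classes in P7_WT and P7_L7_Emx1, while in P7_L7_Nestin microglia-like (4474 CPM) and endothelial-like cells (4477 CPM) stood level with them. OPC-like cells were at 5543 to 6007 CPM over the 3 libraries.

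**Figure D3:**
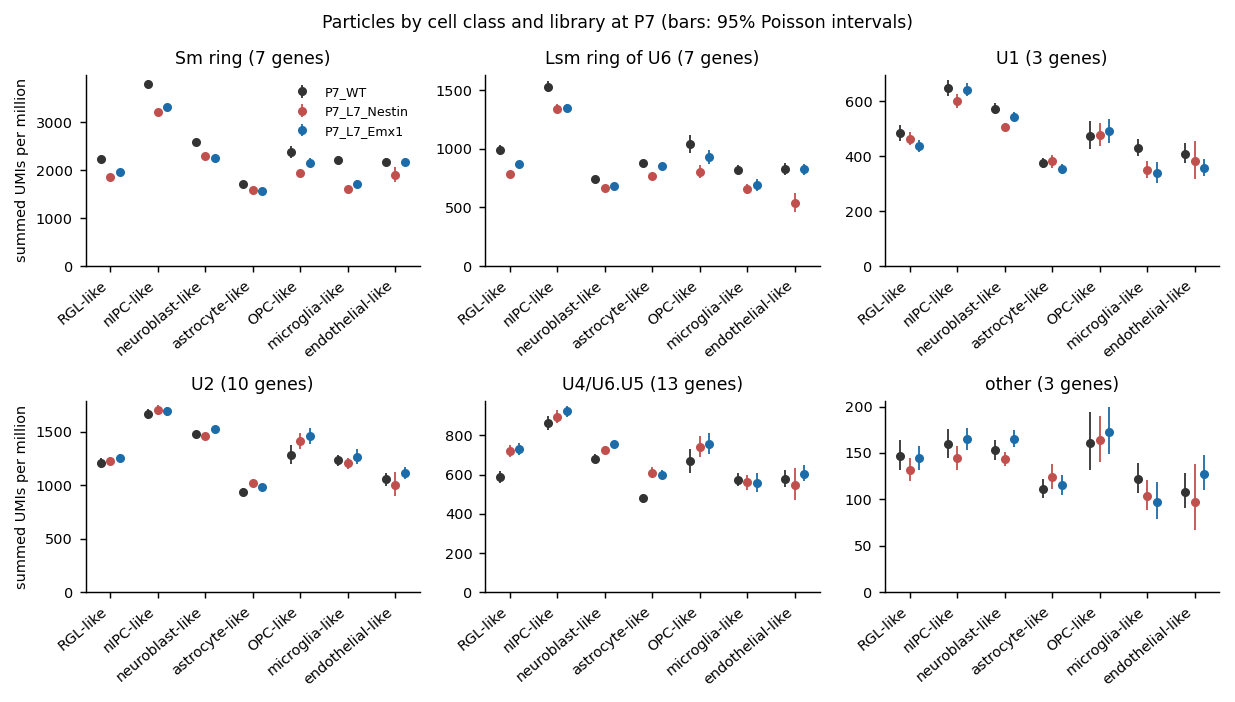
Summed CPM of each particle's members by cell class in the 3 P7 libraries (error bars are exact 95% Poisson intervals). The Sm ring is the largest sum and nIPC-like cells have the highest Sm level, at 3805, 3224 and 3318 CPM.

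The difference between nIPC-like and neuroblast-like cells lay mainly in the rings. The 43-member sum was higher in nIPC-like cells by 0.48, 0.44 and 0.45 on the log2 scale (mean 0.46 ± 0.019, SD over 3 libraries). The median member stood at 0.37, 0.42 and 0.40, where the median of all 7873 genes compared was -0.09, -0.01 and -0.03. In all 3 libraries 7 of 43 members (16.3%) were at least 1.5-fold higher, against 8.1% of all genes, and 0 were at least 1.5-fold lower, against 10.6% of all genes. These 7 were Lsm2, Lsm3, Lsm4, Lsm5, Lsm6, Lsm8 and the Sm gene Snrpf. Lsm7 was the Lsm member outside them, at log2 differences of 0.47, 0.48 and 0.19.

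The Lsm sum was 1531, 1340 and 1345 CPM in nIPC-like and 744, 669 and 680 CPM in neuroblast-like cells. Lsm4, the highest of the ring by the mean of the 3 libraries over all cells, was at 373, 354 and 351 CPM in nIPC-like and 181, 181 and 180 CPM in neuroblast-like cells. Lsm2 was at 194, 165 and 166 CPM against 83.2, 66.7 and 62.7 CPM, and Lsm7, the lowest of the ring, at 69.0, 68.3 and 51.9 against 49.9, 49.0 and 45.6 CPM. By contrast, the U2 sum was 1667, 1705 and 1692 CPM in nIPC-like and 1480, 1464 and 1523 CPM in neuroblast-like cells. Sf3b1 was the highest U2 member and lay lower in nIPC-like (413, 486 and 455 CPM) than in neuroblast-like cells (475, 506 and 530 CPM), by less than 1.5-fold. Sf3a2, the lowest U2 member, was at 49.9, 44.7 and 38.3 CPM against 43.4, 34.2 and 38.3 CPM. In U1, Snrpc was the highest member, at 286, 258 and 269 against 215, 206 and 224 CPM, and Snrpa the lowest, at 166, 178 and 189 against 150, 121 and 120 CPM. The highest and lowest tri-snRNP members were Snrnp27, at 124, 104 and 107 against 98.7, 78.0 and 93.4 CPM, and Prpf3, whose values are given with the mutants. Of the 3 others, Prpf19 was the highest, at 90.3, 85.2 and 89.5 against 81.5, 72.8 and 85.6 CPM, and Sart3 the lowest, at 33.8, 32.7 and 34.8 against 27.9, 32.6 and 33.3 CPM. These members outside the Lsm ring were all less than 1.5-fold apart in at least 1 library. Snrnp70 and Snrnp48, a protein of the minor spliceosome, were also lower in nIPC-like cells in all 3 libraries, by log2 differences of -0.08 to -0.11 and -0.20 to -0.53.

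**Figure D4:**
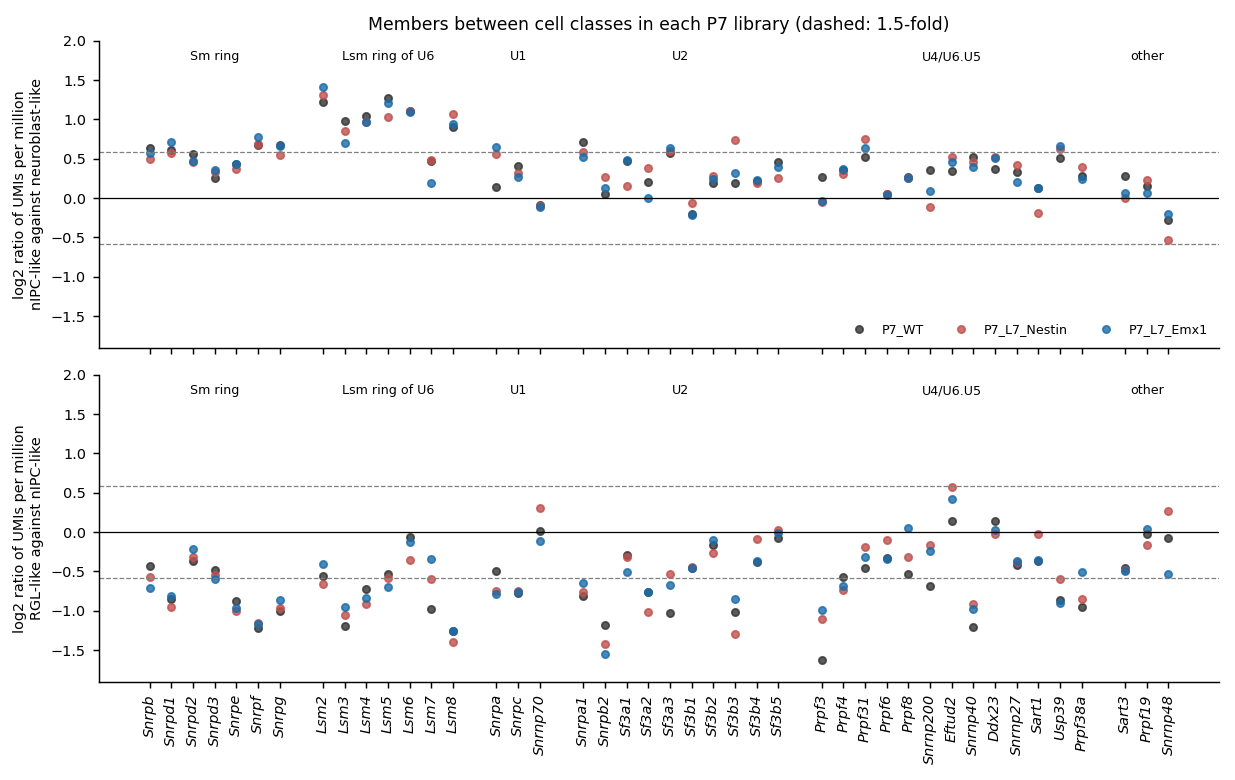
Log2 ratio of CPM for each member in the 3 P7 libraries, nIPC-like over neuroblast-like cells above and RGL-like over nIPC-like cells below (dashed lines are 1.5-fold). In the upper panel Lsm2, Lsm3, Lsm4, Lsm5, Lsm6, Lsm8 and Snrpf are at least 1.5-fold higher in every library and in the lower panel 14 members are 1.5-fold lower in every library.

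RGL-like cells stood below nIPC-like cells. The 43-member sum was lower by 0.62, 0.61 and 0.58 on the log2 scale in P7_WT, P7_L7_Nestin and P7_L7_Emx1. Among 42 members with enough UMIs, 14 (33.3%) were at least 1.5-fold lower in all 3 libraries, against 16.5% of 6676 genes, and 0 were higher, against 20.3%. They spanned every named particle: Snrpd1, Snrpe, Snrpf and Snrpg of the Sm ring, Lsm3, Lsm4 and Lsm8 of the Lsm ring, Snrpc of U1, Snrpa1, Snrpb2, Sf3a2 and Sf3b3 of U2, and Snrnp40 and Usp39 of the tri-snRNP. Snrpe, the highest Sm transcript, was at 496, 389 and 404 CPM in RGL-like and at 914, 782 and 790 CPM in nIPC-like cells, and Snrpd3, the lowest, at 170, 174 and 175 against 238, 254 and 264 CPM. Snrpc was at 167, 153 and 158 CPM against 286, 258 and 269 CPM, and Lsm6 at 305, 203 and 244 against 319, 259 and 267 CPM.

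Summed cell cycle levels, like the members' sum, were higher in nIPC-like cells than in neuroblast-like and RGL-like cells. Between RGL-like and neuroblast-like cells the order differed. In every library RGL-like cells had the higher cell cycle levels but the lower members' sum. The summed G2/M level was 14931, 11668 and 12064 CPM in nIPC-like, 3130, 2815 and 2888 CPM in neuroblast-like and 4896, 3986 and 4815 CPM in RGL-like cells. The summed S phase level was 3514, 3066 and 3488 CPM in nIPC-like, 812, 832 and 889 CPM in neuroblast-like and 1475, 1459 and 1709 CPM in RGL-like cells. The part of the cell cycle in the members' level was not tested.

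Most pairs of members correlated positively across the classes, within a particle about as much as between particles. Over 7 classes, the median Pearson correlation of the 903 pairs of members was 0.67, 0.58 and 0.61 in P7_WT, P7_L7_Nestin and P7_L7_Emx1, and 91.5% to 97.0% of pairs were positive. Pairs of the Sm ring had medians of 0.80, 0.75 and 0.80 and pairs of the Lsm ring 0.63, 0.75 and 0.59. The medians in P7_L7_Nestin were lower for U1 (0.25), the tri-snRNP (0.46) and the 3 other members (0.09). Pairs within any particle had a median of 0.67, 0.63 and 0.63, close to the 0.67, 0.58 and 0.61 of pairs from different particles. The points share 1 library each and its depth. Correlations were not computed for pairs of all genes, so it is not known whether members differ from other genes in this. The rings are built with 1 copy of each protein, but their transcripts were unequal: Snrpe made up 22.4%, 23.5% and 22.9% of the Sm UMIs and Snrpd3 7.29%, 8.19% and 8.34%. In the Lsm ring, Lsm7 made up 4.37% to 5.44% and Lsm6 22.5% to 25.5%, with Lsm6 between 18.1% and 36.1% by class. Near-identical copies elsewhere in the genome, at 95% identity or more, existed for 10 members, including Snrpe, Snrpf, Lsm5 and Lsm7, so reads of these are uncertain. Snrpf also shares 69.7% of its exon bases with Ccdc38 on the opposite strand, and Prpf31 43.2% with Gm15927, and it is not stated whether counting used strand.

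In the mutant P7 libraries the 43 members together were below the wild-type level in RGL-, nIPC- and neuroblast-like cells, while Prpf8, Snrnp200 and Prpf3 stood above it. The 43-member sum, as a log2 ratio of mutant over wild-type with 95% intervals, was -0.13 (-0.16 to -0.09) and -0.07 (-0.10 to -0.04) for P7_L7_Nestin and P7_L7_Emx1 in RGL-like cells. It was -0.13 (-0.16 to -0.11) and -0.10 (-0.13 to -0.08) in nIPC-like and -0.10 (-0.12 to -0.08) and -0.07 (-0.09 to -0.05) in neuroblast-like cells. Both mutants are set against the same wild-type library. The sum was also lower in microglia-like cells, at -0.27 (-0.32 to -0.23) and -0.21 (-0.26 to -0.16), but within the deeper microglia-like cluster, an alternative chosen after seeing the data, it was 0.02 (-0.04 to 0.08) and 0.09 (0.02 to 0.15). Within the 3 neuroblast-like clusters, also chosen afterwards, it was -0.15, -0.08 and -0.05 in P7_L7_Nestin and -0.12, -0.07 and -0.01 in P7_L7_Emx1. In astrocyte-like cells the intervals included 0 (-0.03 to 0.03 and -0.04 to 0.02). The particles did not move alike. The Sm sum in RGL-like cells was 2242, 1862 and 1963 CPM in P7_WT, P7_L7_Nestin and P7_L7_Emx1, and the Lsm sum 992, 783 and 867 CPM, whereas the tri-snRNP sum was 588, 720 and 730 CPM and the U2 sum 1207, 1227 and 1254 CPM. In nIPC-like cells the tri-snRNP sum was 863, 895 and 922 CPM and in neuroblast-like cells 681, 727 and 754 CPM, again with the wild-type library lowest.

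Members past 1.5-fold were few. In RGL-like cells 2 of 42 members, Prpf8 and Snrnp200, were higher in each mutant, against 7.45% of all genes in P7_L7_Nestin and 4.14% in P7_L7_Emx1. There, 1 member, Lsm6, was lower in P7_L7_Nestin, against 2.82% of all genes, and 0 in P7_L7_Emx1, against 1.53%. In nIPC-like cells 3 of 43 (Prpf3, Prpf8 and Ddx23) were higher in P7_L7_Nestin, against 9.29%, and 2 (Prpf3 and Prpf8) in P7_L7_Emx1, against 6.34%, and 0 were lower, against 5.39% and 1.9%. In neuroblast-like cells 3 (Prpf3, Prpf8 and Snrnp200) were higher in each mutant, against 11.4% and 7.22%, and 0 lower, against 8.6% and 3.11%. The shares of members higher, 4.65% to 6.98%, were below the background in 5 of these 6 comparisons and near it in the other, so the counts are not a result about the members.

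Prpf8 was at 38.1 CPM (30.5 to 47.0) in wild-type RGL-like cells and at 87.7 (77.9 to 98.4) and 93.6 (83.6 to 104) CPM in P7_L7_Nestin and P7_L7_Emx1. In nIPC-like cells it was at 55.1, 109 and 89.9 CPM, and in neuroblast-like cells at 45.6, 91.2 and 75.4 CPM. The intervals of both mutants lay above that of wild-type in all 3 classes. The same order held in astrocyte-like cells (38.9, 70.9 and 67.9 CPM) and OPC-like cells (56.0, 112 and 93.4 CPM), and in microglia-like cells Prpf8 was at 51.4, 71.7 and 70.0 CPM. Within the deeper microglia-like cluster it was at 40.2, 75.6 and 69.4 CPM, and within the shallower one at 61.6, 46.3 and 75.1 CPM from 59, 10 and 8 UMIs.

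Snrnp200 was at 39.4, 79.8 and 78.0 CPM in RGL-like, 63.5, 89.8 and 92.5 CPM in nIPC-like and 49.7, 97.1 and 86.7 CPM in neuroblast-like cells of P7_WT, P7_L7_Nestin and P7_L7_Emx1. The mutant to wild-type log2 ratios were 1.02 and 0.99 in RGL-like, 0.50 and 0.54 in nIPC-like and 0.97 and 0.80 in neuroblast-like cells. In microglia-like cells it was at 38.8, 56.1 and 58.5 CPM, and within their deeper cluster at 35.6, 54.8 and 51.7 CPM. Prpf3 was at 20.2, 32.7 and 32.1 CPM in nIPC-like and 16.8, 33.8 and 32.9 CPM in neuroblast-like cells. In RGL-like cells Prpf3 was at 6.57, 15.2 and 16.1 CPM, from 15, 50 and 55 UMIs, which is under the minimum of 100 UMIs for the counts above. In all 3 classes both mutant libraries had the higher values of each of these genes.

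**Figure D5:**
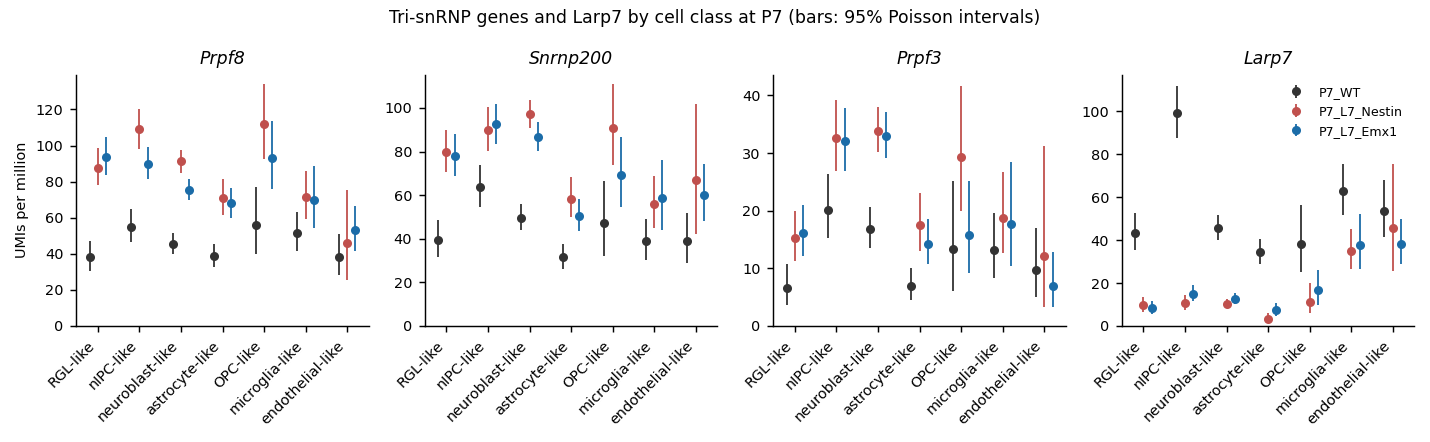
CPM of Prpf8, Snrnp200, Prpf3 and Larp7 by cell class in the 3 P7 libraries (error bars are exact 95% Poisson intervals). Prpf8 in RGL-like cells is at 38.1 CPM in P7_WT and at 87.7 and 93.6 CPM in the mutants, where Larp7 is at 9.71 and 8.22 CPM against 43.4 CPM.

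Transcript length moved with these differences at P7. Genes with at least 5000 exon bases, among them Prpf8 (7481 bases) and Snrnp200 (6760 bases), had median log2 ratios of 0.21 and 0.16 in RGL-like, 0.24 and 0.18 in nIPC-like and 0.23 and 0.16 in neuroblast-like cells for P7_L7_Nestin and P7_L7_Emx1. Genes of at most 1500 exon bases, which include all 7 Sm ring genes, had medians of -0.20 and -0.11, -0.16 and -0.09, and -0.20 and -0.15. Sf3b1 (7722 bases), Prpf19 (6333), Prpf4 (5792) and Sart1 (5132) were also in the long group. Their log2 ratios in these classes ran from -0.22 (Prpf19, RGL-like, P7_L7_Nestin) to 0.41 (Prpf4, nIPC-like, P7_L7_Emx1). Prpf3, with 3516 exon bases, was in neither length group. In microglia-like cells the medians were 0.08 and 0.09 for long and -0.18 and -0.13 for short genes. Within their deeper cluster they were 0.16 and 0.11 for long and -0.05 and -0.02 for short genes, and within the shallower one -0.40 and -0.06 for long and 0.04 and 0.02 for short genes. In neurospheres the medians of long and short genes were -0.01 and 0.03. The share of transcript length in the P7 ratios was not tested, and library preparation and genotype cannot be told apart with 1 library of each.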

How the data were processed

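The members and gene lists were chosen with earlier results of these data known. The neurosphere table holds unnormalized read counts of each gene, as the authors deposited them. The paper's methods name Minimap2 alignment, while the submitters' processing notes also list featureCounts and mm10. The deposited P7 matrices hold raw UMI counts from 10x 3′ chemistry, and their headers name Cell Ranger. The count table holds 5 further columns that match no sample in the labels and were not used. Chromatin libraries (4 of 12 samples) were not analysed here.

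Bulk counts were filtered with filterByExpr, scaled with TMM and tested with edgeR 4.0.16 (quasi-likelihood, R 4.3.3), with Benjamini-Hochberg adjustment over all genes tested and a threshold of 0.05. The step was tested on simulated data. DESeq2 1.42.0, other scaling and filters, leaving out each library and a replicate block were alternatives. The labels do not say whether replicate numbers pair the libraries, and the main fit did not pair them. Deviations of same-numbered libraries from their group means correlated at r = -0.01 and 0.09 for numbers 1 and 2. With 2 wild-type libraries the wild-type deviations are exact opposites, so these values cannot exclude a pairing. Cells with over 500 genes and under 15% mitochondrial UMIs were kept, doublets included. Clustering used scanpy 1.11.5 (2000 variable genes, 30 components, 15 neighbours, Leiden resolution 1, seed 1), with 433 genes left out, and the 25 clusters were named from fixed markers. CPM per class came from summed UMIs. A gene was called at P7 past 1.5-fold with at least 100 UMIs over the libraries or classes compared.

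Named genes were, per particle, the member with the smallest p and the one with the highest level per kilobase in neurospheres, and at P7 the highest and the lowest member and those past 1.5-fold in both mutants in RGL-, nIPC- or neuroblast-like cells. All others, such as Lsm2, Lsm6 and, in neurospheres, Prpf3, Snrnp200 and Ddx23, were named after their values were seen.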

Additional observations from a re-analysis of the deposited data

Results flagged for a closer look

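The sum of the 43 members was higher in all 3 KO neurosphere libraries than in both wild-type libraries, by 0.14 on the log2 scale, whereas in the P7 RGL-, nIPC- and neuroblast-like cells it was lower than wild-type in both mutant libraries, by log2 ratios of -0.07 to -0.13. Every library of one preparation lay on one side and every library of the other on the opposite side, and the difference between preparations was not tested. The 2 sums weigh the members differently. Prpf8 made up 521 of 4779 CPM in wild-type neurospheres and 45.6 of 6222 CPM in P7_WT neuroblast-like cells. The median member, with each gene weighed alike, was at 0.19 in neurospheres and at -0.03 to -0.16 in these P7 classes. The tri-snRNP sum at P7 was higher in both mutants in these classes. At P7 genes of at most 1500 exon bases had median log2 ratios of -0.09 to -0.20 in these classes, and in neurospheres 0.03. The summed G2/M level was higher in KO neurospheres than in wild-type ones and lower in both mutant libraries at P7 in these classes. Of these classes, only nIPC-like cells had a lower summed S phase level in both mutants, at 3514 CPM in P7_WT against 3066 and 3488 CPM. That level was 1475 against 1459 and 1709 CPM in RGL-like cells and 812 against 832 and 889 CPM in neuroblast-like cells.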

How the results depend on the processing

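Members called at an adjusted p under 0.05 numbered 0 in edgeR, 10 in DESeq2 and 0 to 13 with a library left out, the 13 without wild-type replicate 1. Of all genes, 6 were called, 1591 in DESeq2, 3 when every gene with at least 1 count was tested, and 0 (without KO replicate 3) to 1905 (without wild-type replicate 1) with a library left out. The pathway lists had 1 call (Larp7), 10 in DESeq2 and 0 to 10 with a library left out. Under the replicate block 0 genes, 0 members and 0 pathway genes were called. Members higher at an unadjusted p under 0.05 ranged from 9 (without wild-type replicate 2) to 27 (without wild-type replicate 1), and the median log2 fold change from 0.10 to 0.28. The sign was kept in every setting by 34 of 43 members and turned in at least 1 setting for Lsm5, Lsm6, Lsm7, Prpf31, Sf3a1, Sf3b4, Snrpd3, Snrpf and Usp39.

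At P7 the mean log2 ratio of the 43-member sum, nIPC-like over neuroblast-like, was 0.50 at Leiden resolution 2, 0.36 with at least 1000 genes per cell, 0.43 thinned to 1500 UMIs, 0.48 without the top 6% Scrublet scores and 0.53 scaled over all cells together, and members past 1.5-fold numbered 11 (25.6%, against 10.6% of all genes) and 13 (30.2%, against 11.4%) under the last 2 of these. For RGL-like over nIPC-like it was -0.50 at resolution 2, -0.45 with at least 1000 genes, -0.47 without the top Scrublet scores, -0.52 with cell cycle genes kept and -0.70 scaled together, and 9 members (21.4%) were lower at resolution 2, against 10.4% of all genes, and 9 (21.4%) with at least 1000 genes, against 14.8%.

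Mutant over wild-type, the sum at resolution 2 was -0.16 in RGL-like cells of P7_L7_Nestin and -0.20 and -0.17 in nIPC-like cells of P7_L7_Nestin and P7_L7_Emx1. Thinned, nIPC-like P7_L7_Nestin was at -0.18. With at least 1000 genes, nIPC-like P7_L7_Emx1 was at -0.0775 and neuroblast-like cells at -0.0667 and -0.0462. Scaled together, nIPC-like cells were at -0.0433 and -0.0462 and neuroblast-like cells at -0.0705 and -0.0475, and with cell cycle genes kept neuroblast-like cells were at -0.0548 and -0.0388. RGL-like members lower in P7_L7_Nestin numbered 2 thinned and 0 with at least 1000 genes, cell cycle genes kept or joint scaling. Thinned, nIPC-like cells had 1 member higher and 1 lower in each mutant and neuroblast-like cells of P7_L7_Nestin 1 lower. At resolution 2, members lower were 4 and 1 in nIPC-like cells of P7_L7_Nestin and P7_L7_Emx1 and 1 in neuroblast-like cells of P7_L7_Nestin. Cluster by cluster, an alternative chosen after seeing the data, the neuroblast-like sum was at -0.148, -0.0767 and -0.0533 in P7_L7_Nestin and at -0.124 and -0.00967 in 2 of the 3 clusters in P7_L7_Emx1. The microglia-like sum turned to 0.0197 and 0.0857 in the deeper cluster, and Prpf8 in P7_L7_Nestin to -0.41 in the shallower one. The cause of these shifts was not tested. Over 48 values each from these settings, Prpf8 stayed at log2 ratios of 0.35 to 1.54, Prpf3 of 0.63 to 1.70 and Snrnp200 of 0.13 to 1.06.

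Prpf3 in wild-type RGL-like cells rests on 15 UMIs, and with 2 and 3 neurosphere libraries and 1 P7 library per genotype, replication limits every comparison here.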

Other observations

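Snrpn, which encodes the neuronal Sm protein SmN, a close paralogue of SmB, was at 163, 161 and 167 CPM in neuroblast-like cells of P7_WT, P7_L7_Nestin and P7_L7_Emx1. It was at 127, 127 and 122 CPM in nIPC-like, 79.3, 74.1 and 88.3 CPM in RGL-like, 71.1, 60.2 and 65.0 CPM in astrocyte-like and 32.5, 39.7 and 38.4 CPM in endothelial-like cells. Unlike the sum of the 43 members, it was higher in neuroblast-like than in nIPC-like cells in all 3 libraries. In neurospheres Snrpn was at 25.4 and 28.7 CPM in wild-type and 28.2, 29.0 and 35.3 CPM in KO libraries, which overlapped.

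A cluster left unnamed, with Tesc, Hells, Neurog2 and Dll1 among its leading genes, had the highest 43-member sum of the clusters and classes with 50 cells or more in each library, at 9337, 8860 and 8980 CPM from 442, 333 and 350 cells. Its summed S phase level was 4923, 5426 and 5518 CPM, above the 3514, 3066 and 3488 CPM of nIPC-like cells.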
